A study of Mus musculus with 9 samples.

Results

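RNA polymerase III is the nuclear enzyme that makes transfer RNAs, 5S ribosomal RNA and other short non-coding RNAs. It is brought to its genes by the initiation factor TFIIIB. Described here are 9 genes of this machinery, chosen by name and matched by Ensembl identifier: the enzyme subunits Polr3a, Polr3b, Polr3c, Polr3d, Polr3e, Polr3g and Polr3k, and the TFIIIB components Brf1 and Bdp1. Each symbol matched 1 of the 35771 genes in the table, and all 9 were among the 13424 genes that passed the filter on low counts. In mouse ESCs (embryonic stem cells), Polr3g is known as the form of its subunit that pluripotent cells favour over the paralogue Polr3gl. Myc, a transcription factor that drives growth, is known to bind TFIIIB and to raise RNA polymerase III transcription.

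RNA sequencing measured gene expression in 9 libraries of sorted mouse ESCs of mixed background, all homozygous for iMOS T1-Myc and carrying RERT. iMOS T1-Myc is an allele whose recombination gives a mosaic of cells that differ in their number of extra Myc copies, each copy coming with the fluorescent protein EYFP; RERT makes the recombination depend on tamoxifen. There were 3 libraries of cells with 2 extra copies of Myc and EYFP, 3 of cells with no extra copy, and 3 of uninduced cells. The first 2 groups, called the induced groups, came from mosaic cultures given 20 µM 4-hydroxytamoxifen for 24 h and sorted on EYFP 24 h after the drug was removed; no extra copy is therefore a sorted fraction of a drug-treated culture and not an untreated line. Cells in all groups were grown on gelatin with LIF. The treatment label is the same for all 9 samples, so the uninduced group was assigned from the sample titles and the design text. Each group's 3 samples are described as biological replicas, but no source used here says that they were separate cultures. The p-values therefore set differences between groups against the spread between these samples, which may be technical.

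Library totals were between 4165286 and 8872303 expected counts (estimated reads per gene, rounded). Myc, the targeted gene, had 138.3, 146.9 and 141.2 CPM (counts scaled by library total) with 2 extra copies, 31.8, 30.6 and 32.4 CPM with none and 11.5, 14.1 and 14.2 CPM in uninduced cells. It was 4.52-fold higher with 2 extra copies than with none, in the order the labels give. It was also 2.36-fold higher in the libraries labelled as having no extra copy than in uninduced cells (edgeR adjusted p = 1.1e-11), so that label does not mean the Myc level of uninduced cells. All 8 ESC markers on the list examined were tested, and their summed level was 3250 to 3440 CPM with 2 extra copies, 3520 to 3590 with none and 3400 to 3450 in uninduced cells. A fibroblast list, of which 8 of 9 genes were tested, summed to 126 to 135 CPM with 2 extra copies, 201 to 225 with none and 81.8 to 87.3 in uninduced cells. Its largest parts were Tagln, at means of 53.8, 83.1 and 34.5 CPM in these groups, and Acta2, at 23.3, 50.7 and 18.6. Not every gene followed the sum. Thy1 averaged 3.41, 4.09 and 4.99 CPM, Col3a1 5.45, 4.32 and 2.45, and Postn 0.666, 0.398 and 0.355. An endoderm list, of which 2 of 6 genes were tested, summed to 8.69 to 13.8 CPM with 2 extra copies, 15.1 to 19.5 with none and 14.9 to 15.6 in uninduced cells. A neural list, with 5 of 5 tested, summed to 186 to 195 CPM with 2 extra copies, 202 to 216 with none and 199 to 211 in uninduced cells. No marker was at 0 in a whole group. Replicate 1 with 2 extra copies stood apart from the other libraries of its group, with a chi-square per degree of freedom of 2.61 and 2.97 against 1.36 to 1.80 between the replicates of the other groups.

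The promoters of the member genes are shown first, because Myc is a DNA-binding factor and its E-box can be looked for in them. RefSeq promoter windows (GRCm38.p6) were found for 6 members, namely Polr3b, Polr3c, Polr3e, Polr3g, Polr3k and Bdp1. The windows for Polr3b, the member with the smallest p over the 3 groups, and for Polr3g, the other member with a called difference, are printed from 250 bases before the start site to 30 after it, 5′ to 3′ on the gene's strand. With them are Polr3c and Polr3e, which hold the E-box CACGTG, the sequence that Myc and its partner Max are known to bind. Capitals mark CACGTG and, in Polr3e, GGTTCGAATCC, a match to the consensus of the B box that TFIIIC recognises inside transfer RNA genes (GGTTCGA, any base, then TCC).
Polr3b, chr10:84622048-84622327, plus strand: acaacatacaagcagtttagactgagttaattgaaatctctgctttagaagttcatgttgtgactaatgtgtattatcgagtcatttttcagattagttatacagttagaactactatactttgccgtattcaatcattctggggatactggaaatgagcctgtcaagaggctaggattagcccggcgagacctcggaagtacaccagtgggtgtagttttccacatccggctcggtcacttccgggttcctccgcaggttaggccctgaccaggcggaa
Polr3g, chr13:81710984-81711263, minus strand: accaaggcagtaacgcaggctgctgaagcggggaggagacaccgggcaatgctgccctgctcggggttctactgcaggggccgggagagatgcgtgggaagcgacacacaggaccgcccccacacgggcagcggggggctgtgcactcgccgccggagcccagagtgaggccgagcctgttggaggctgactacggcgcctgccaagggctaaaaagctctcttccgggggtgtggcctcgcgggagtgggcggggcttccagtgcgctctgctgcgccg
Polr3c, chr3:96727410-96727689, minus strand: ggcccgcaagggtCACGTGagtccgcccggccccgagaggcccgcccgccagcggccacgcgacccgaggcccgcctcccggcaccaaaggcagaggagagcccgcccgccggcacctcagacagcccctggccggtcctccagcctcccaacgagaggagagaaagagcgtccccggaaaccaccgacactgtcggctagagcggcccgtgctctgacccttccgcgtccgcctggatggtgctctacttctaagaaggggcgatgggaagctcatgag
Polr3e, chr7:120917528-120917807, plus strand: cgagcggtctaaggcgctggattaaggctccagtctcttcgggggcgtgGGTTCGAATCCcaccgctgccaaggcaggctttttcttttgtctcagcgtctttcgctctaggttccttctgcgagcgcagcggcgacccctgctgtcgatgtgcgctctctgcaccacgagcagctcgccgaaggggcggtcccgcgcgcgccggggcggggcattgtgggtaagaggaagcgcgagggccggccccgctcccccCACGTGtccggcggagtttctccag

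CACGTG, which reads the same on both strands, was found in the windows of 2 of the 6 members, 237 bases upstream of the start in Polr3c and 6 bases downstream of it in Polr3e. The same letters stood in 7.15% of all RefSeq promoter windows (2349 of 32851), and 3 of the 22 partner genes with a window (Polr3gl, Polr2h and Gtf3c6; 13.6%) held them. The B-box consensus, searched on both strands, was found in 1 of the 6 members, Polr3e, on the gene's own strand and 201 bases upstream of its start. Of all windows, 15 of 32851 (0.0457%) held it, and 0 of the 22 partner genes with a window did. The 2 motifs do not overlap in Polr3e. Neither Polr3b nor Polr3g had either motif in its window. Distances are from the RefSeq start of each window. The GENCODE annotation, used here for gene positions, starts Polr3c and Polr3e further upstream, at 96727628 and 120917744, so the distances depend on the annotation. A match describes the letters and is not a measured binding site.

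All 9 members were expressed in all 9 libraries, with between 104 and 864 counts per gene and library. Per kilobase of the principal annotated transcript, which allows levels to be compared between genes, the mean over all libraries was highest for Polr3c, at 30.1 CPM per kb, followed by Polr3d at 27.2, Polr3g at 25.5 and Polr3e at 21.7. Polr3b stood at 20.0, Polr3a at 15.3, Polr3k at 11.3, Brf1 at 11.2 and Bdp1 at 8.74 CPM per kb. The ranges over the 9 libraries overlapped between most neighbours in this order. The exceptions were Polr3b, at 17.3 to 22.1 CPM per kb, which lay wholly above Polr3a, and Polr3a, at 14.3 to 16.4 CPM per kb, which lay wholly above Polr3k. Polr3a and Polr3b, whose products form the catalytic centre together in equal numbers, thus differed in level per length in every library. The transcripts counted are not known to be the ones used in these cells, so the order depends on the annotated lengths.

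**Figure D1:**
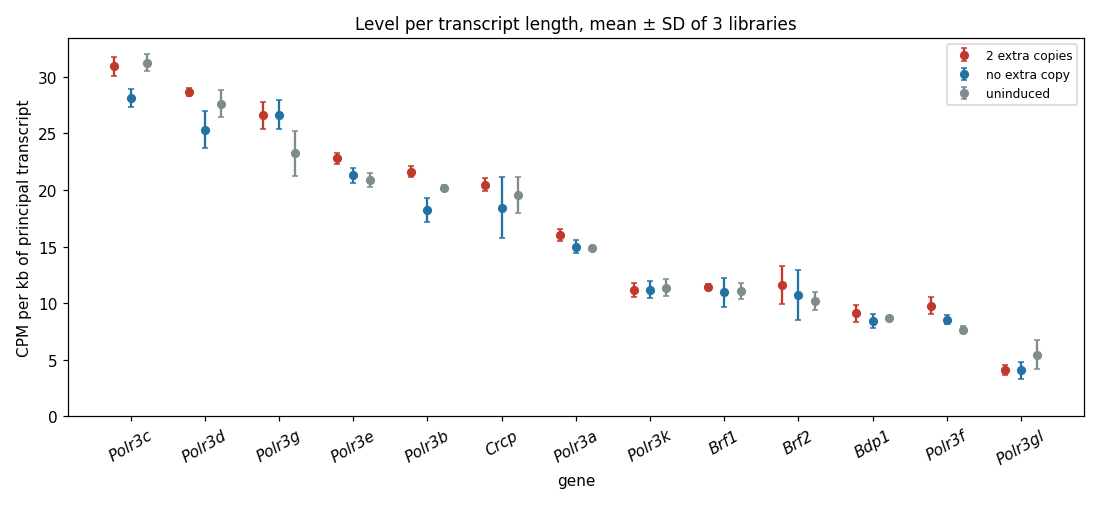
Levels of the 9 member genes and of the partner genes Polr3f, Polr3gl, Crcp and Brf2 per kilobase of the principal transcript (CPM per kb), as the mean ± SD of 3 libraries, with colours for 2 extra copies, no extra copy and uninduced cells. Among the members Polr3c lies highest, with a mean of 30.1 CPM per kb over all libraries, and Bdp1 lowest, with 8.74.

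The sorted fractions of the induced mosaic cultures, 2 extra copies against none, were compared to ask what differed with the number of Myc copies. Polr3b rose 1.18-fold, and none of the other 8 members passed the test. The count was 1 of 9 members higher and 0 lower (edgeR quasi-likelihood test, Benjamini-Hochberg adjusted p under 0.05), against 8.3% of all 13424 genes tested called higher and 7.7% called lower. At an unadjusted p under 0.05, 3 members were higher and 0 lower, against 14.1% and 14.5% of all genes tested. DESeq2 and limma-voom each called 1 member higher and 0 lower, against 4.9% and 3.11% of all genes by DESeq2 and 8.19% and 7.71% by limma-voom. The summed fibroblast markers also differed between these groups, at 126 to 135 CPM with 2 extra copies and 201 to 225 CPM with none, and their part in the results of this comparison was not tested. Scaling by library size alone changed the split over all genes to 774 higher and 1360 lower, against 1114 and 1034. In bulk samples, less RNA of a gene per cell and fewer cells that express it cannot be told apart.

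Polr3b (ENSMUSG00000034453; GRCm38 chromosome 10, 84622292 to 84727178, plus strand) encodes the next largest subunit after Polr3a, with which it closes the catalytic centre. It had 104.8, 109.9 and 107.9 CPM in the libraries with 2 extra copies, against 89.4, 96.5 and 86.2 CPM with no extra copy. The uninduced libraries had 100.7, 101.5 and 99.3 CPM. All 3 libraries with 2 extra copies were above the other 6, and all 3 with no extra copy were below the other 6. The log2 change between 2 extra copies and none was 0.23 (SE 0.0525, 95% interval 0.126 to 0.34, edgeR adjusted p = 0.00192). The call held in all 19 alternative analyses, with log2 changes of 0.198 to 0.29. On the other strand, exons of Gm17249 cover 4.7% of its exonic bases, and strand-specific counting is not stated.

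Polr3a, the largest subunit, had 72.1, 76.4 and 76.6 CPM with 2 extra copies, against 71.6, 72.0 and 67.2 CPM with no extra copy and 69.2, 69.3 and 70.2 CPM in uninduced cells. The groups with 2 extra copies and with none did not overlap, but came as near as 72.05 and 72.02 CPM. Its log2 change between 2 extra copies and none was 0.09 (95% interval -0.03 to 0.207, edgeR adjusted p = 0.336). Whether the changes of Polr3a and Polr3b differ from each other was not tested.

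Polr3d and Polr3e, which form a pair of subunits on the side of the enzyme, both had non-overlapping libraries in this comparison. Polr3d had 58.9, 58.0 and 57.5 CPM with 2 extra copies, against 47.6, 53.8 and 52.9 CPM with none, a log2 change of 0.17 (SE 0.0682, edgeR adjusted p = 0.0831). Polr3e had 93.8, 95.4 and 97.8 CPM with 2 extra copies, against 92.1, 89.1 and 86.7 CPM with none, a log2 change of 0.10 (SE 0.0528, edgeR adjusted p = 0.225). Neither passed the test.

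Polr3c, which with Polr3f and Polr3g or Polr3gl makes up the subcomplex used for initiation, had 75.0, 75.9 and 72.1 CPM with 2 extra copies, against 69.7, 67.0 and 66.0 CPM with none. The groups did not overlap, and the log2 change of 0.14 (SE 0.0586) had an edgeR adjusted p of 0.116. Polr3g had a log2 change of 0.00 between 2 extra copies and none, with a 95% interval of -0.123 to 0.131. Counted over the 9 members, 5 had non-overlapping groups with 2 extra copies higher (Polr3a, Polr3b, Polr3c, Polr3d and Polr3e) and 0 lower, against 15.4% and 15.2% of all genes tested, 30.6% in all.

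Polr3k, a small subunit needed for RNA cleavage and termination, Brf1, which recruits the enzyme to its genes, and Bdp1, the TFIIIB component that stabilises the complex on DNA, all had overlapping groups. Polr3k had 31.3 to 34.9 CPM with 2 extra copies, 31.1 to 35.4 CPM with none and 31.3 to 35.5 CPM in uninduced cells. Brf1 had 29.3 to 30.7 CPM with 2 extra copies, 24.8 to 31.1 CPM with none and 26.9 to 30.3 CPM in uninduced cells. The log2 changes of Polr3k, Brf1 and Bdp1 between 2 extra copies and none were -0.02, 0.04 and 0.12, with edgeR adjusted p of 0.929, 0.832 and 0.207. Over the 9 members, 8 of the log2 changes were positive, against 6397 of the 13424 genes tested. The median over the members was 0.10, against -0.01 over all genes tested. The summed level of the 9 members was 653.4, 640.5 and 641.5 CPM with 2 extra copies and 587.7, 608.1 and 591.8 CPM with none. Uninduced libraries summed to 606.6, 615.7 and 603.6 CPM. The sum was thus higher in each library with 2 extra copies than in the other 6.

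**Figure D2:**
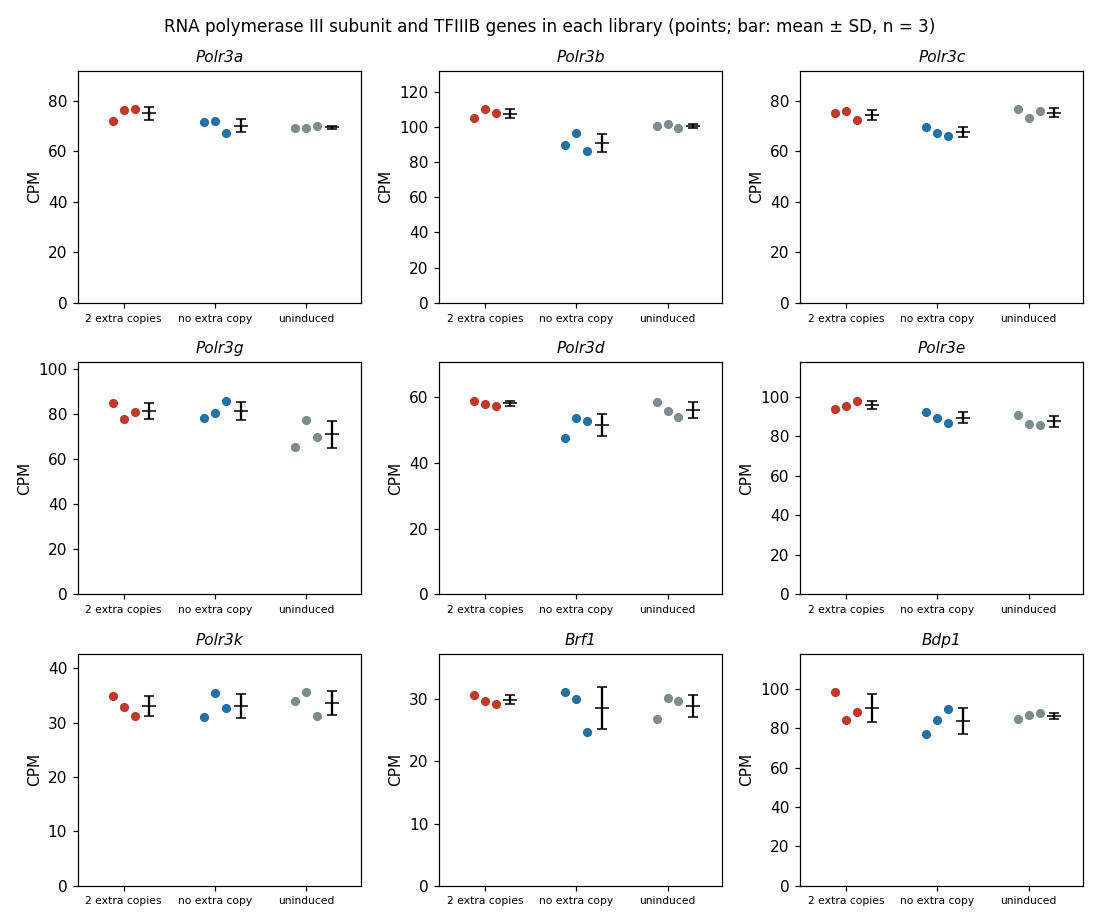
CPM of each of the 9 member genes in each library, with 1 panel per gene and the groups 2 extra copies, no extra copy and uninduced from left to right; the line is the mean and the bar the SD of 3 libraries. For Polr3b the groups do not overlap, at 104.8 to 109.9 CPM with 2 extra copies and 86.2 to 96.5 with none, whereas for Polr3g the uninduced libraries lie lowest.

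For Bdp1 the call depended on a trend over transcript length that differed between libraries. The correlation of the level of a gene, relative to the mean over all libraries, with its log2 transcript length was 0.0197, -0.135 and -0.178 in the 3 libraries with 2 extra copies, -0.0155, 0.0166 and 0.0479 with none, and 0.154, 0.0664 and 0.0578 in uninduced cells. These are descriptions across genes, which are not independent replicates. Bdp1 has the longest principal transcript of the members, at 9921 bases. Its levels were 98.2, 84.4 and 88.2 CPM with 2 extra copies and 76.8, 84.1 and 89.8 CPM with none. The uninduced libraries had 84.8, 86.6 and 87.7 CPM, within the range of the other groups. With the length trend removed from each library, the log2 change of Bdp1 was 0.24 between 2 extra copies and none (edgeR adjusted p = 0.00169), against 0.12 without that step.

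The next comparison set cells carrying 2 extra copies against uninduced cells, which differ in Myc copies and also in drug treatment and recombination. Polr3g rose 1.14-fold, and the other 8 members did not pass the test. This was 1 of 9 members higher and 0 lower by edgeR, against 12.8% and 12.1% of all genes tested, 25.0% in all. At an unadjusted p under 0.05, 2 members were higher and 0 lower, against 17.9% and 18.5% of all genes tested. DESeq2 called 0 and 0 members (8.1% and 5.97% of all genes), and limma-voom called 1 and 0 (1741 and 1662 of the 13424 genes). The comparison shares its libraries with the other 2 comparisons, so the results are not independent of each other.

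Polr3g (ENSMUSG00000035834; GRCm38 chromosome 13, 81673843 to 81711013, minus strand) had 85.0, 77.9 and 80.7 CPM with 2 extra copies, against 65.5, 77.4 and 69.9 CPM in uninduced cells. It had 78.2, 80.2 and 85.7 CPM where no extra copy was present. All 6 induced libraries lay above the 3 uninduced ones, the nearest pair being 77.9 CPM in an induced library and 77.4 CPM in uninduced replicate 2. The log2 change between 2 extra copies and uninduced cells was 0.19 (SE 0.062, 95% interval 0.066 to 0.318, edgeR adjusted p = 0.0209). It was lost with DESeq2 (adjusted p = 0.0913) and when uninduced replicate 1 or 3 was left out (edgeR adjusted p = 0.155 and 0.0651). The summed fibroblast markers, at 126 to 135 CPM with 2 extra copies, 201 to 225 CPM with none and 81.8 to 87.3 CPM in uninduced cells, were also higher in the induced libraries, and their part in the result was not tested.

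The other 8 members had log2 changes of -0.03 to 0.13 between 2 extra copies and uninduced cells. Polr3e had 93.8 to 97.8 CPM with 2 extra copies, against 85.7 to 90.7 CPM in uninduced cells, a log2 change of 0.13 (SE 0.0518, edgeR adjusted p = 0.0651), and these groups did not overlap. Polr3e was called with RLE scaling and without replicate 1 with 2 extra copies (edgeR adjusted p = 0.0488 and 0.0342). Polr3b had a log2 change of 0.10 and Polr3a of 0.11, both with non-overlapping groups and edgeR adjusted p of 0.162 and 0.159. In all, 4 members (Polr3a, Polr3b, Polr3e and Polr3g) had non-overlapping groups with 2 extra copies higher and 0 lower, against 19.1% and 19.4% of all genes tested, 38.5% in all. Polr3c, Polr3d, Polr3k, Brf1 and Bdp1 had log2 changes between -0.03 and 0.06. The median over the members was 0.06, against -0.01 over all genes tested. With the length trend removed, Bdp1, Polr3b and Polr3e were called higher besides Polr3g, with log2 changes of 0.24, 0.14 and 0.14 (edgeR adjusted p = 0.000705, 0.0397 and 0.0324).

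The third comparison was of cells without an extra copy and uninduced cells, groups that differ in drug treatment and recombination and also, by 2.36-fold, in the level of Myc. Polr3g rose 1.14-fold, and 0 members were called lower. By edgeR, 1 of 9 members was called higher and 0 lower, against 7.1% and 6.39% of all genes tested, 13.5% in all. At an unadjusted p under 0.05, 1 member was higher and 2 lower, against 13.4% and 12.3% of all genes tested. DESeq2 called 0 and 0 members (2.97% and 3.03% of all genes), and limma-voom called 1 and 0 (7.12% and 6.44%). The log2 change of Polr3g was 0.19 (SE 0.0619, 95% interval 0.062 to 0.313, edgeR adjusted p = 0.0382). This call was lost with DESeq2 (adjusted p = 0.182), with upper-quartile scaling (edgeR adjusted p = 0.0529), and when any 1 library of cells with no extra copy, or uninduced replicate 1 or 3, was left out (edgeR adjusted p = 0.0511 to 0.241).

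In 3 members the libraries with no extra copy all lay below the uninduced ones, without passing the test. They were Polr3b with a log2 change of -0.14 (edgeR adjusted p = 0.0809), Polr3c with -0.15 (edgeR adjusted p = 0.0754) and Polr3d with -0.12 (edgeR adjusted p = 0.251). Non-overlapping groups were thus seen in 3 members with no extra copy lower and 1 (Polr3g) with it higher, against 15.4% and 16.1% of all genes tested, 31.5% in all. Polr3c had 69.7, 67.0 and 66.0 CPM with no extra copy and 76.5, 73.1 and 75.9 CPM in uninduced cells. Among the members, 4 changes were positive and 5 negative, against 6770 and 6654 of all genes tested. The median of the members, -0.01, was close to that of all genes tested, at 0.00. Polr3c was called lower with the length trend removed and without replicate 1 with 2 extra copies (edgeR adjusted p = 0.0442 and 0.0495), and Polr3b without replicate 2 with no extra copy (edgeR adjusted p = 0.0387).

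**Figure D3:**
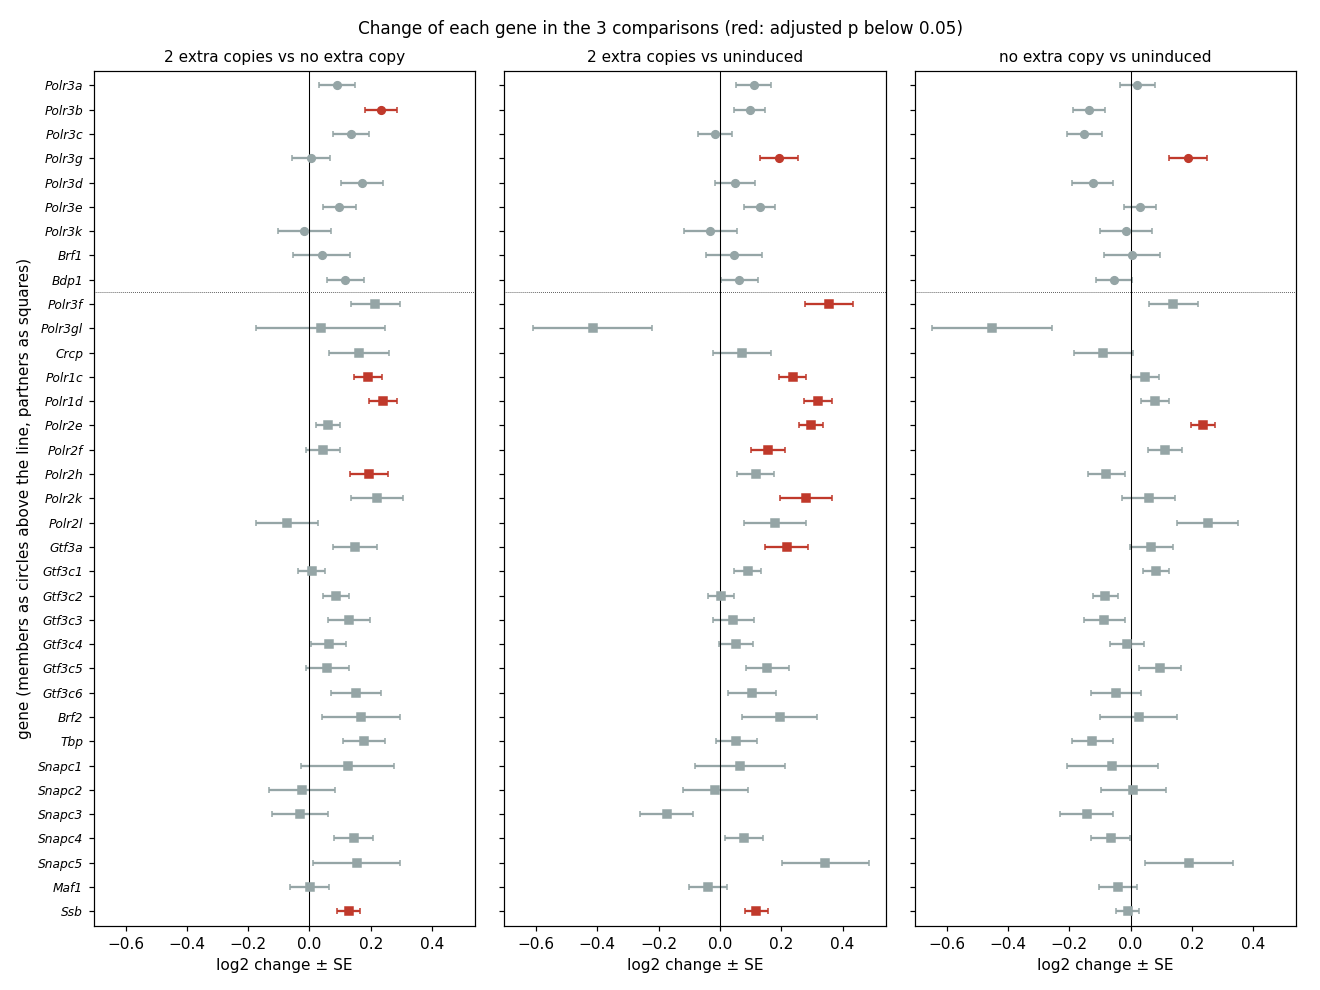
log2 changes of the 9 members (circles) and of 26 partner genes (squares) in the 3 comparisons (2 extra copies against no extra copy and against uninduced cells, and no extra copy against uninduced cells), with bars of 1 SE from the edgeR fit; red marks passed the test at an adjusted p under 0.05. Among the members, Polr3b is called in the first comparison, at 0.23, and Polr3g in the other 2, at 0.19 and 0.19.

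Polr3gl, the paralogue of Polr3g that takes the same position in the enzyme in other cells, stood at 5.61, 5.42 and 6.52 CPM with 2 extra copies. It had 4.76, 5.81 and 6.91 CPM with no extra copy and 6.33, 9.83 and 7.24 CPM in uninduced cells. The induced and uninduced libraries overlapped, and its log2 changes against uninduced cells were -0.42 with 2 extra copies and -0.45 with none (edgeR adjusted p = 0.117 and 0.13). With 28 to 78 counts per library, Polr3gl was measured with less precision than any member.

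The ratio of Polr3g to Polr3gl in CPM, which within a library does not depend on scaling, was 15.2, 14.4 and 12.4 with 2 extra copies, against 16.4, 13.8 and 12.4 with none. In uninduced cells it was 10.4, 7.87 and 9.66. All 6 induced libraries had a higher ratio than the 3 uninduced ones. The difference in mean log2 ratio was 0.59 between 2 extra copies and uninduced cells and 0.61 between no extra copy and uninduced cells, each with p = 0.1 in a two-sided exact permutation test, the smallest p that 3 against 3 libraries allow. Between 2 extra copies and none it was -0.02 (exact p = 0.9). Per kilobase, Polr3g made up 86.7% of the pair with 2 extra copies, 86.8% with no extra copy and 81.2% in uninduced cells.

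**Figure D4:**
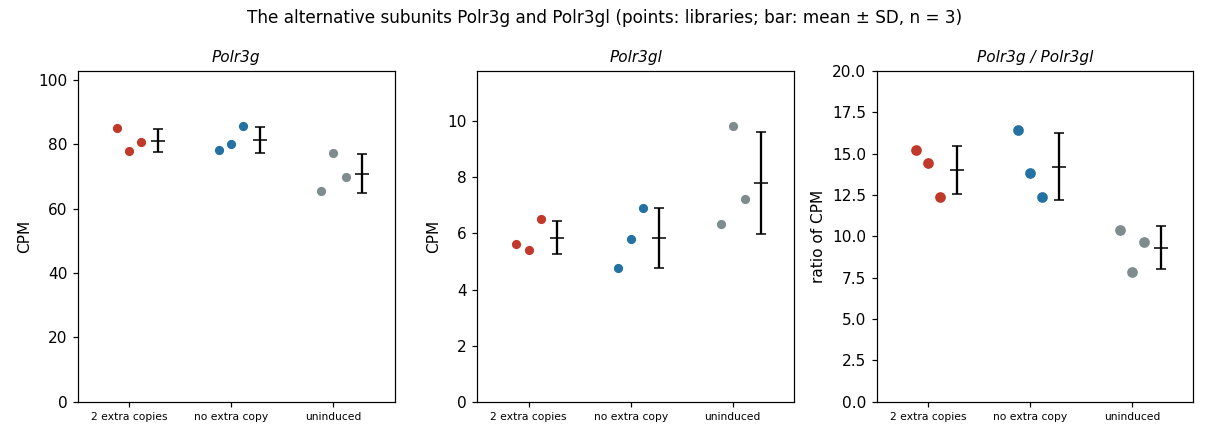
CPM of Polr3g and Polr3gl and their ratio in each library, grouped as 2 extra copies, no extra copy and uninduced. The ratio is 12.4 to 16.4 in the 6 induced libraries and 7.87 to 10.4 in the 3 uninduced ones.

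A list of 26 partner genes was examined beside the members, comprising other subunits of the enzyme, the factors TFIIIA, TFIIIC and SNAPc, the alternative TFIIIB components Brf2 and Tbp, the repressor Maf1 and Ssb, which encodes the La protein that binds the ends of new transcripts. All 26 were tested. Between 2 extra copies and none, 4 (15.4%) were higher and 0 lower by edgeR, against 8.3% and 7.7% of all genes tested. At an unadjusted p under 0.05, 9 were higher and 0 lower, against 14.1% and 14.5% of all genes. DESeq2 called 3 and 0 (4.9% and 3.11% of all genes) and limma-voom 4 and 0 (8.19% and 7.71%). The median log2 change of the list was 0.13, against -0.01 over all genes tested. Between 2 extra copies and uninduced cells 8 (30.8%) were higher and 0 lower, against 12.8% and 12.1% of all genes tested (11 and 1 unadjusted, 5 and 0 by DESeq2, 8 and 0 by limma-voom), with a median of 0.11 against -0.01. Between no extra copy and uninduced cells 1 (3.85%) was higher and 0 lower, against 7.1% and 6.39% of all genes tested, with a median of 0.00 against 0.00. Unadjusted, 3 were higher and 1 lower, against 13.4% and 12.3% of all genes. DESeq2 called 1 and 0 (2.97% and 3.03% of all genes) and limma-voom 1 and 0 (7.12% and 6.44%).

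Subunits that RNA polymerase III shares with RNA polymerases I and II made up most of these calls, with 3 of 7 called higher between 2 extra copies and none, 5 of 7 between 2 extra copies and uninduced cells and 1 of 7 between no extra copy and uninduced cells. The shares of all genes called higher in these comparisons were 8.3%, 12.8% and 7.1%. Polr1d, shared with RNA polymerase I, had 145.9, 147.3 and 152.1 CPM with 2 extra copies, 126.6, 125.2 and 126.0 CPM with none, and 114.2, 119.6 and 123.8 CPM in uninduced cells. The 3 groups did not overlap, and Polr1d rose 1.18-fold against cells with no extra copy (edgeR adjusted p = 0.000357) and 1.247-fold against uninduced cells (edgeR adjusted p = 2.63e-06). Polr1c, the partner with which it pairs in both enzymes, rose 1.14-fold and 1.18-fold with 2 extra copies in the same comparisons (edgeR adjusted p = 0.00337 and 0.000152). These calls of Polr1c and Polr1d held in all 19 alternatives.

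Polr2e, shared by all 3 nuclear polymerases, had 237.9, 247.0 and 236.7 CPM with 2 extra copies, 232.4, 232.0 and 226.9 CPM with none, and 199.9, 188.5 and 199.3 CPM in uninduced cells. Both induced groups lay wholly above uninduced cells, and Polr2e rose 1.23-fold with 2 extra copies and 1.18-fold with none (edgeR adjusted p = 9.95e-07 and 6.46e-05). It was the 1 partner gene called between no extra copy and uninduced cells. Polr2h, also shared by all 3, rose 1.145-fold with 2 extra copies against none (edgeR adjusted p = 0.0258), and Gm7511 matched 46.1% of its transcript at 98.4% identity. Polr2k, another of them, rose 1.21-fold against uninduced cells (edgeR adjusted p = 0.0134), but another annotated gene, Gm46136, matched 49.6% of its transcript at 96.3% identity, so reads could be split between them. The call of Polr2h was lost with DESeq2, with library size alone and without replicate 2 with no extra copy (adjusted p = 0.15, 0.0742 and 0.156), and that of Polr2k in 6 alternatives, among them DESeq2, removal of the length trend and leaving out replicate 2 with 2 extra copies or uninduced replicate 1 or 3 (adjusted p = 0.0522 to 0.117). Polr2f, shared by all 3 as well, had 94.1, 92.0 and 93.2 CPM with 2 extra copies, against 81.7, 86.1 and 82.5 CPM in uninduced cells, and 89.6, 95.5 and 83.1 CPM with no extra copy, which overlapped both. On the other strand, exons of 1700088E04Rik cover 9.4% of its exonic bases. Polr2f rose 1.115-fold with 2 extra copies against uninduced cells (edgeR adjusted p = 0.0334), and this call, the one lost most often among the partners, held in 9 of 19 alternatives. It was lost with DESeq2, library size alone, upper-quartile scaling, no filter and the length trend removed with or without the replicate block, and without replicate 2 or 3 with 2 extra copies or uninduced replicate 1 or 3 (adjusted p = 0.051 to 0.139).

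Among the subunits not shared with other polymerases, Polr3f, which joins Polr3c and Polr3g in the initiation subcomplex, had 42.1, 40.7 and 46.7 CPM with 2 extra copies, against 33.3, 35.4 and 32.6 CPM in uninduced cells. It had 38.9, 35.5 and 38.3 CPM with no extra copy. Polr3f rose 1.28-fold with 2 extra copies against uninduced cells (edgeR adjusted p = 0.000962), a call that held in all 19 alternatives.

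Gtf3a, which encodes TFIIIA, the factor for 5S ribosomal RNA genes, rose 1.16-fold with 2 extra copies against uninduced cells (edgeR adjusted p = 0.0206), and this was lost with DESeq2 (adjusted p = 0.106) and without replicate 3 of either group (edgeR adjusted p = 0.09 without the library with 2 extra copies and 0.135 without the uninduced one). Exons of Mtif3 on the other strand cover 59.1% of the exonic bases of Gtf3a, so its value is uncertain. Ssb rose 1.09-fold with 2 extra copies both against none and against uninduced cells (edgeR adjusted p = 0.0174 and 0.0181), and 20.0% of its exonic bases are covered by Gm13625 on the other strand. The first of these calls was lost in 3 alternatives, without replicate 3 with 2 extra copies, without replicate 2 with no extra copy and with library size alone (edgeR adjusted p = 0.0513, 0.119 and 0.0779), and the other in 4, with no filter and without replicate 3 with 2 extra copies or uninduced replicate 1 or 2 (edgeR adjusted p = 0.0526 to 0.0743). Brf2, the alternative of Brf1 at another class of promoters, had overlapping groups in all 3 comparisons, with log2 changes of 0.17, 0.19 and 0.03 (edgeR adjusted p = 0.411, 0.264 and 0.926). No member of TFIIIC or SNAPc, nor Tbp or Maf1, was called in any of the 3 comparisons.

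**Figure D5:**
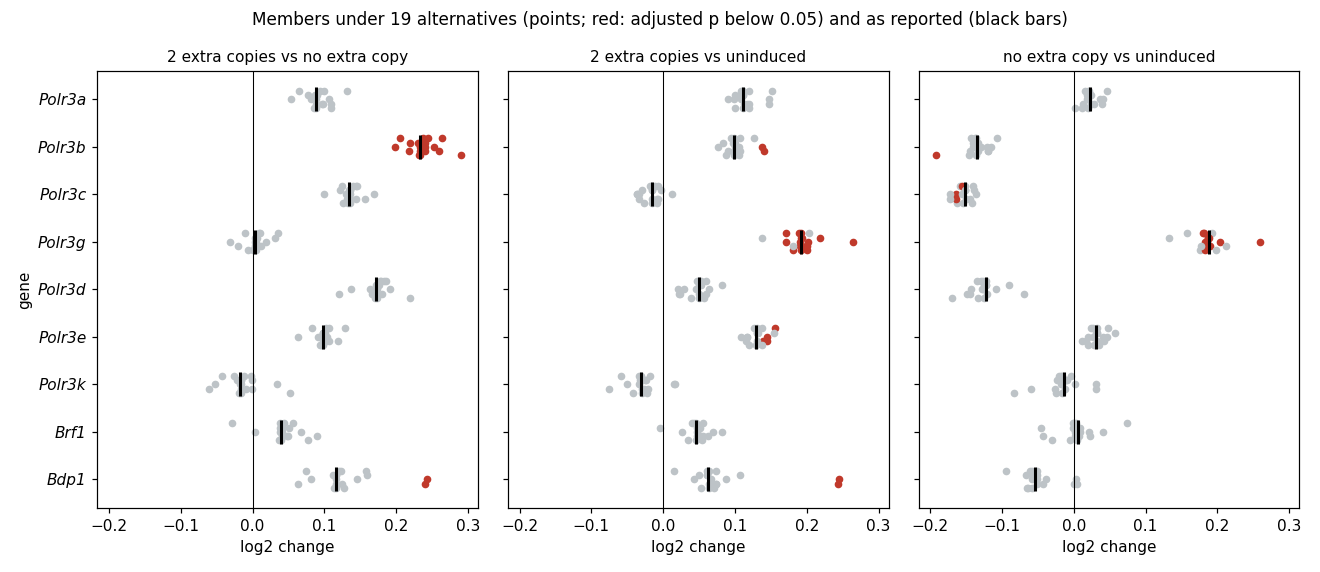
log2 changes of the 9 members in the 3 comparisons under the reported analysis and 19 alternatives, with the reported value as a black bar and the alternatives as points, red where the gene was called at an adjusted p under 0.05. Polr3b is called in all 19 alternatives between 2 extra copies and none, and Polr3g in 16 between 2 extra copies and uninduced cells and in 12 between no extra copy and uninduced cells.

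The genes whose levels over the 9 libraries were most like those of Polr3b were picked by Pearson correlation of log2(CPM + 1). The search covered 9127 genes that averaged 10 CPM or more, leaving out those with only an identifier or a provisional name. The genes picked were Jph4 (r = 0.971), Uck2 (r = 0.969), Cenpt (r = 0.949), Sept10 (r = 0.947) and Nif3l1 (r = 0.947). The libraries share groups and depth, so these values describe likeness and carry no test. Uck2, a kinase of the pyrimidine salvage pathway, had 305 ± 5.12 CPM with 2 extra copies, 264 ± 10.8 CPM with none and 283 ± 7.59 CPM in uninduced cells (SD, n = 3 each). Cenpt, a protein of the centromere, had 94.8 ± 2.6 CPM with 2 extra copies, 84.9 ± 2.61 CPM with none and 90.8 ± 1.83 CPM in uninduced cells (SD, n = 3 each). In all 5, as in Polr3b, the mean was highest with 2 extra copies and lowest with no extra copy, an order that follows from how they were picked.

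RNAs made by RNA polymerase III were nearly absent from the counts. Of 9 such genes listed, 8 were in the table and 2, Rn7s1 and Rn7s2 of the signal recognition particle RNA, passed the filter on low counts. These 2 had identical values in every library, at 4 to 46 counts, so their reads cannot be told apart. Their groups overlapped in all 3 comparisons, and they were not called. Rn7sk, the RNA that holds back the elongation factor P-TEFb, had 0 to 19 counts per library. The values above are therefore levels of messenger RNAs for the machinery, and the output of the enzyme was not assessed.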

How the data were processed

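Total RNA of sorted ESCs was read as 75 bp single ends, per the labels. The authors deposited expected counts per gene, estimated with RSEM 1.17 on GRCm38, per the submitters' processing notes, which list Picard, limma and cutadapt too, with no role; no source used here names the aligner. Expected counts were rounded here. Genes kept by filterByExpr of edgeR 4.0.16 (R 4.3.3) numbered 13424 and held 99.8% of counts. A quasi-likelihood F-test (robust, TMM scaling) was fitted to all 9 libraries with 1 coefficient per group, with Benjamini-Hochberg adjustment over all genes tested; calls required an adjusted p below 0.05. CPM were computed here after TMM scaling. Standard errors were taken as the size of the log2 change over the root of F. The steps were tested on simulated data for 2 extra copies against none. Of genes given a 1.15-fold change 26.0% were called, against 56.0% at 1.25-fold, 86.0% at 1.5-fold and 100% at 2-fold. In the simulation 50 genes were given each change and 13047 none, whereas 2148 genes were called in the data. Adjustment over all genes was therefore stricter in the simulation. Small changes can be missed, but these shares do not measure how many were missed among the members. Alternatives numbered 19, with DESeq2 1.42.0 and limma-voom (limma 3.58.1), other scalings, no filter, the groups compared alone, a replicate block, removal of a length trend and leaving out each library.

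Gene names, positions and transcript lengths came from GENCODE M21 (GRCm38), in which 35432 of 35771 identifiers had a name. No transcript of another gene matched a member or partner at 95% identity over 50% of its length. Exon overlap on either strand is given because strand-specific counting is not stated. Besides the genes with overlaps given above, exons on the other strand cover 6.8% of the exonic bases of Brf1 and 3.6% of Polr3gl. They also cover 5.4% of Polr2h, 2.3% of Brf2, 19.0% of Tbp, 7.1% of Snapc3 and 5.6% of Snapc4. On the same strand, Gm29609 covers 38.9% of Gtf3c2. The members, lists, tests and naming rule were chosen with earlier results of these data known. The rule named all members, Polr3gl, Brf2, Myc, up to 8 called partners per comparison by smallest p, and the 5 genes most like the member with the smallest p over the 3 groups; 1 gene is not reported here. Equal replicate numbers were checked for pairing. The labels do not say that they share a culture, so the reported fit did not pair the libraries.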

Additional observations from a re-analysis of the deposited data

How the results depend on the processing

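Of the log2 changes of the 9 members under 19 alternatives, 467 kept their direction and their side of the threshold, 14 became called, 10 lost their call and 22 changed sign, all of the last in changes that were not called. With DESeq2 the calls over all genes numbered 1075 between 2 extra copies and none, 1889 between 2 extra copies and uninduced cells and 806 between no extra copy and uninduced cells, against 2148, 3350 and 1811 by edgeR. DESeq2 called 0 members in both comparisons with uninduced cells and 5 partners, against 8, between 2 extra copies and uninduced cells. Library size alone called 2 partners, against 4, between 2 extra copies and none, where it called 2134 genes in all. RLE scaling called 2 members between 2 extra copies and uninduced cells, and 3395 genes in all. Upper-quartile scaling called 0 members between no extra copy and uninduced cells, and 1821 genes in all. Removing the length trend, with or without the replicate block, called 2, 4 and 2 members in the 3 comparisons and 2 partners in the last. Genes called in all then numbered 2306, 3341 and 1976 without the block and 2367, 3407 and 2075 with it.

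Leaving out 1 library at a time gave 1 to 1, 0 to 2 and 0 to 2 members in the 3 comparisons, 2 to 5, 5 to 9 and 1 to 2 partners, and 1397 to 2564, 2453 to 3719 and 1177 to 2201 genes in all, the lowest of the first and last without replicate 2 with no extra copy. That library also gave the 2 partners of the first comparison; the 5 of the next came without replicate 3 with 2 extra copies or uninduced replicate 1 or 3, and the 2 of the last without uninduced replicate 3. The log2 ratio of Polr3g to Polr3gl was -0.114 to 0.088, 0.477 to 0.676 and 0.498 to 0.706.

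Sign changes of the log2 change were as follows. Between 2 extra copies and none, leaving out 1 library gave -0.02 to 0.035 for Polr3g (-0.031 with library size alone), -0.061 to 0.052 for Polr3k, -0.028 to 0.09 for Brf1 and -0.074 to 0.134 for Polr3gl. Between 2 extra copies and uninduced cells it gave -0.037 to 0.012 for Polr3c, -0.076 to 0.016 for Polr3k and -0.005 to 0.082 for Brf1. Between no extra copy and uninduced cells it gave -0.083 to 0.031 for Polr3k (0.001 with library size alone), -0.046 to 0.074 for Brf1 and -0.111 to 0.14 for Brf2. There, Brf1 was also -0.005 with upper-quartile scaling, -0.001 with no filter and -0.001 with the replicate block, and Bdp1 was 0.003 with the length trend removed and 0.004 with the replicate block besides. The cause was not tested.

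Libraries with the same replicate number correlated at -0.0945 to 0.212 in their deviations from the group means, over 0.1 in 1 of 9 pairs, and 1 of 9 libraries correlated best with its own number in both other groups. Between 2 extra copies and uninduced cells, same-numbered pairs correlated at 0.212, 0.0756 and 0.0735, and the other pairs at -0.137 to 0.066. Same-numbered pairs that included no extra copy correlated at -0.0945 to 0.0326. Whether equal numbers share a culture is not stated. The replicate block called 2233, 3440 and 1933 genes, 1, 1 and 1 members and 4, 8 and 1 partners in the 3 comparisons. Counts of 104 to 864 per member and library, and 3 libraries per group, limit what differences can be seen.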

Other observations

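The TFIIIB component Brf1 and its alternative at another class of promoters, Brf2, were also set against each other within each library. The ratio of Brf1 to Brf2 in CPM was 1.65, 1.30 and 1.19 with 2 extra copies, 1.69, 1.70 and 0.981 with none, and 1.28, 1.69 and 1.53 in uninduced cells. The 3 groups overlapped. The difference in mean log2 ratio was -0.05 between 2 extra copies and none, -0.13 between 2 extra copies and uninduced cells and -0.08 between no extra copy and uninduced cells, with two-sided exact permutation p of 0.8, 0.5 and 1.0 and a smallest possible p of 0.1.

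The summed level of the 7 subunits shared with other polymerases was 779.6, 802.8 and 785.9 CPM with 2 extra copies, 725.4, 723.7 and 708.5 CPM with none and 652.6, 664.6 and 675.9 CPM in uninduced cells. The 3 groups did not overlap. The 8 members without Polr3g summed to 568.3, 562.7 and 560.8 CPM with 2 extra copies, 509.5, 527.9 and 506.0 CPM with none and 541.1, 538.3 and 533.7 CPM in uninduced cells, so that here the lowest group was the one with no extra copy. These sums describe the lists and carry no test.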
